A study of Mus musculus with 8 samples.

Results

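Natural killer cells of the mouse brain after a stroke were selected by receptor transcripts from 8 single-cell RNA sequencing libraries, and 169 of 39608 cells met the rule. All of these cells held at most 10% mitochondrial unique molecular identifiers (UMIs, each standing for 1 captured transcript). A natural killer cell had to hold at least 2 UMIs in sum over Ncr1, Klrb1c and Klre1, which encode the receptors NKp46, NK1.1 and NKG2I. It had to hold 0 UMIs of Cd3e, Cd3d and Cd3g, the CD3 chains of the T cell receptor complex, and 0 of the B cell receptor gene Cd79a. At most 1 UMI each was allowed of Csf1r and Csf3r, the growth factor receptors of macrophages and of neutrophils. These 9 genes chose the cells, so their levels are a description and were not tested. T cells for comparison held at least 2 CD3 UMIs, 0 UMIs of the 3 receptor genes and kept the other limits (511 cells), and 38163 cells fell in none of the gates.

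The study concerned peroxiredoxin 1 (Prdx1), an enzyme that removes hydrogen peroxide, in brain ischemia. Male C57B6L/J mice, labelled Prdx1+/+ (WT) or Prdx1-/- with no tissue-specific driver named, had 1 middle cerebral artery closed for a limited time with a suture and then reopened. Living cells were sorted by a viability dye after perfusion, enzymatic digestion and a Percoll step, with no lineage marker, and sequenced with a 10x Genomics 3′ kit. The 8 groups crossed labelled genotype, hemisphere (contralateral or ipsilateral to the closed artery) and time (24 h or 48 h), with 1 library each. Every mouse had the operation, so the contralateral hemisphere is not that of an unoperated animal. How many animals went into a library is not labelled, so each p-value reflects variation among libraries alone, and that variation can be technical.

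Natural killer cells are innate lymphocytes that kill stressed or infected cells without a rearranged antigen receptor. They weigh inhibitory receptors, such as many of the Ly49 family (Klra genes) and CD94 with NKG2A (Klrd1 and Klrc1), against activating ones such as NKp46 and NKG2D (Klrk1), which signal through adapters such as DAP12 (Tyrobp), DAP10 (Hcst) and the Fc receptor gamma chain (Fcer1g). Activated cells release perforin and granzymes from granules and secrete interferon gamma and chemokines. Eomes and T-bet (Tbx21) direct their development, and the related group 1 innate lymphoid cells (ILC1) share Ncr1 and Klrb1c but largely lack Eomes.

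The promoters of 5 genes are shown because these genes set the cells apart below: Ncr1 from the rule, the granule genes Gzma and Prf1, and the receptor genes Klra4 and Klra8. Each window runs from 250 bases before to 50 after the transcription start in RefSeq (GRCm38.p6), on the gene's own strand. Capitals mark TGTGGT or its reverse complement ACCACA, the core letters bound by RUNX factors.
Ncr1: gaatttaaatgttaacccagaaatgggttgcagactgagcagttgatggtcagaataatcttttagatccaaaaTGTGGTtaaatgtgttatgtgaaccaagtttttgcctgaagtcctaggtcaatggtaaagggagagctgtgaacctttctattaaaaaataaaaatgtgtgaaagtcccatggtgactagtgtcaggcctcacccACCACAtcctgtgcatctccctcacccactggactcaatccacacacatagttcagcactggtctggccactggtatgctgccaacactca
Gzma: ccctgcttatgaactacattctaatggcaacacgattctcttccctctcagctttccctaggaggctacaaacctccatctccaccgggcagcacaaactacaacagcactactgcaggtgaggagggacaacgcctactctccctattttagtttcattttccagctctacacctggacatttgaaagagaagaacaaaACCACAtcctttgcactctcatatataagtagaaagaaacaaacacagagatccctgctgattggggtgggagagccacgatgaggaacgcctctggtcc
Prf1: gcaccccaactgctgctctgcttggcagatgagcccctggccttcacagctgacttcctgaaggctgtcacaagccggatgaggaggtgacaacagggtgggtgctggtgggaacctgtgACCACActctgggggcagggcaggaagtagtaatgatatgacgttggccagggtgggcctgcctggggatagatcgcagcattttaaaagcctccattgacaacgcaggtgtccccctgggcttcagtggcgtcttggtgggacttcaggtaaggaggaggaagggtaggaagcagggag
Klra4: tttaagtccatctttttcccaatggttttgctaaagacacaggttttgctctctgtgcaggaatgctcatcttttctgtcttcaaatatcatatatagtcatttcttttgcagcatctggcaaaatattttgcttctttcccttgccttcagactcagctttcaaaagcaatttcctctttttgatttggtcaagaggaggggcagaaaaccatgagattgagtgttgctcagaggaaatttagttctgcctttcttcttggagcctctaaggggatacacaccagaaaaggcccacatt
Klra8: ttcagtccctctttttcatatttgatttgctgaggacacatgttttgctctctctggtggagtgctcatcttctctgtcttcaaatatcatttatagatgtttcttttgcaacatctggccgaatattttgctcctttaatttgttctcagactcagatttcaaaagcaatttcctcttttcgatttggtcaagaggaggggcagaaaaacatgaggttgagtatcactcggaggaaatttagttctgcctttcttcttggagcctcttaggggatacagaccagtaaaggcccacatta
The windows lie at chr7:4337465-4337764 (Ncr1, plus strand), chr13:113100932-113101231 (Gzma, minus strand), chr10:61297586-61297885 (Prf1, plus strand), chr6:130067222-130067521 (Klra4, minus strand) and chr6:130129849-130130148 (Klra8, minus strand). The RUNX letters occurred 2 times in the Ncr1 window (at -176 and -41 from the start), 1 time in the Gzma window (-50) and 1 time in the Prf1 window (-130). They occurred 0 times in the Klra4 and Klra8 windows, and 16.8% of 32851 RefSeq promoter windows hold them on either strand. The T-box letters GGTGTGA or TCACACC occurred in 0 of the 5 windows and in 3.98% of all windows. The Klra4 and Klra8 windows were identical at 259 of 299 aligned bases (86.6%). This identity is of promoter windows, and that of the transcripts was not measured. Whether transcripts of related Klra genes were split between genes or lost in counting was not tested, so the level of any single Klra gene is uncertain.

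Of the markers Ncr1, Klrb1c, Klre1 and Gzma, the first 3 belong to the rule, so only Gzma was not used to choose the cells. All 3 receptor genes were seen in 114 of the 169 cells, Klrb1c with Klre1 in 16, Ncr1 with Klrb1c in 15 and Ncr1 with Klre1 in 7. Klre1 alone chose 11 cells and Klrb1c alone 6. Gzma, which encodes granzyme A and was not part of the rule, was seen in 71.6% of the members, 7.44% of T cells and 0.419% of all other cells. Median depths per library were 3796 to 8025 UMIs in members, 5550 to 7048.5 in T cells and 7236 to 13465 in other cells. Nkg7 or Ccl5 was seen in 161 members, and Gzma, Gzmb or Prf1 in 139. Over the 5 libraries with at least 10 members, 14 T cell markers summed to 407 to 1087 CPM (UMIs scaled to a common total of all UMIs in the summed cells of a library) in members and 4783 to 6471 CPM in T cells. Of these, Cd4, Cd8a, Cd5 and Cd6 were at 0 in members, beside the CD3 genes that the rule set to 0. The others, Trac, Trbc1, Trbc2, Cd8b1, Cd28, Lef1 and Bcl11b, held UMIs in members, and each was lower than in T cells in the test given below. The 7 markers of group 2 innate lymphoid cells summed to 56.5 to 306 CPM in members and 52.4 to 129 CPM in T cells, with Il1rl1, Il17rb, Il5 and Il13 at 0 in members. The others, Gata3, Areg and Hes1, held UMIs in members. Hes1 was higher than in T cells in the test given below, and Gata3 and Areg did not pass. The 4 measured markers of group 3 innate lymphoid cells, of 5 listed, summed to 42.0 to 111 CPM and 36.3 to 253 CPM, with Il23r and Il17a at 0 in members. Of the markers tested, Ahr was higher and Il17a lower in members than in T cells.

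A subset of 13 members went against the label in part. They held 38 to 942 UMIs of the MHC class II genes H2-Aa, H2-Ab1, H2-Eb1 and Cd74, while no other member held more than 14. Klre1 alone had chosen 9 of the 13. Ncr1 with Klrb1c had chosen 2 and all 3 receptor genes another 2, and these cells held 1 to 23 Nkg7 UMIs, so the subset was mixed. The median depth of the 13 was 15902 UMIs, against 4862 in the other members. Gzma was seen in 7.69% of them, Nkg7 in 30.8% and Il2rb in 30.8%, while Klrd1 was seen in 92.3%, the dendritic cell gene Cd209a in 38.5% and Flt3 in 23.1%. The ipsilateral 24 h library labelled Prdx1-/- held 8 of them, the contralateral and ipsilateral 48 h libraries labelled WT 2 each, and the contralateral 48 h library labelled Prdx1-/- 1. The summed level of 10 dendritic cell markers in the members ran from 89.3 to 13087 CPM, and from 77.0 to 288 CPM without the 13. Named genes whose call was lost or could not be tested without these cells are given as such below.

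The edges of the rule looked different from its core. The 14 members with exactly 2 receptor UMIs held Gzma in 7.14% and Cd74 in 57.1%, and the 155 with 3 or more held Gzma in 77.4% and Cd74 in 12.3%. Just outside, the 50 cells with exactly 1 receptor UMI held Gzma in 2% and Cd74 in 92.0%. Another 116 cells had at least 2 receptor UMIs together with CD3 UMIs, and held Gzma in 38.8% and the T cell receptor gene Trac in 50.9%. Trac was seen in 7.10% of the members with 3 or more receptor UMIs.

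Members were few at 24 h in 3 libraries and more frequent in the other 5. At 24 h, the libraries labelled WT held 8 of 4741 cells contralaterally (0.169%, exact binomial 95% interval 0.0729 to 0.332) and 7 of 5305 ipsilaterally (0.132%, 0.0531 to 0.272). Those labelled Prdx1-/- held 3 of 5200 (0.0577%, 0.0119 to 0.169) and 33 of 5701 (0.579%, 0.399 to 0.812). At 48 h, those labelled WT held 28 of 4157 (0.674%, 0.448 to 0.972) and 32 of 5137 (0.623%, 0.426 to 0.878). The last pair, labelled Prdx1-/- at 48 h, held 22 of 4319 (0.509%, 0.319 to 0.770) and 36 of 5048 (0.713%, 0.500 to 0.986). The ipsilateral 24 h library labelled Prdx1-/- lay among the 48 h libraries, and the other 24 h libraries lay below all of these. The intervals cover counting error only.

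**Figure D1:**
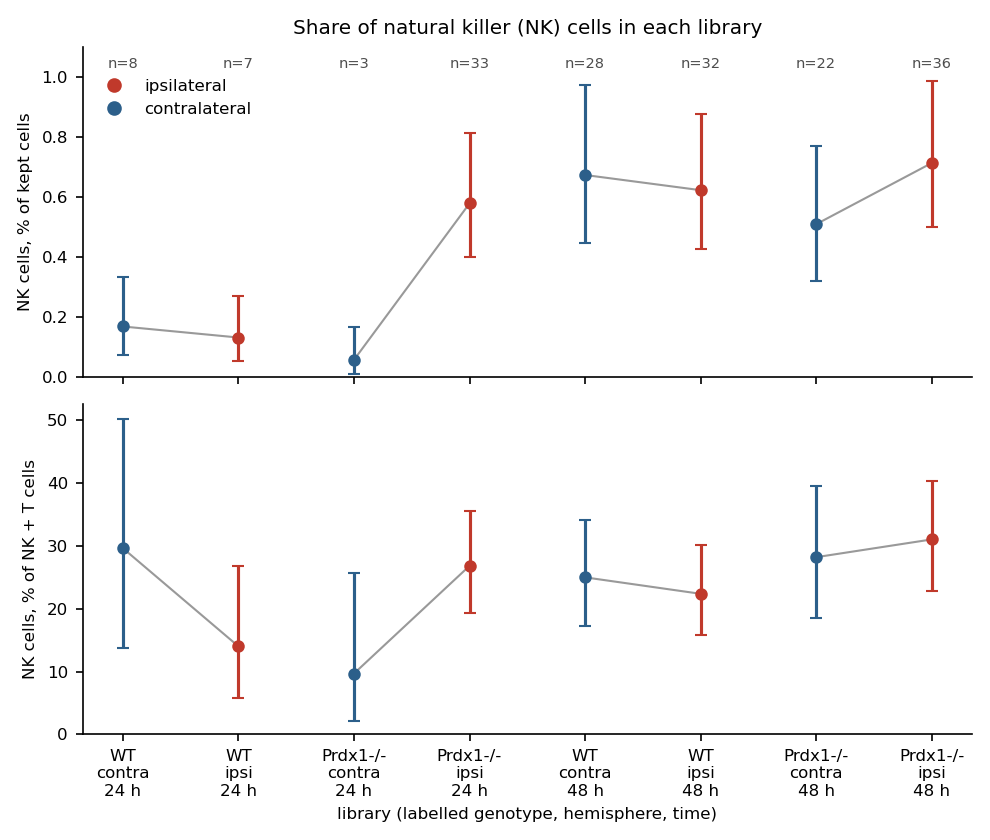
Natural killer cells as a percentage of kept cells (top) and of natural killer plus T cells (bottom) in the 8 libraries, with exact binomial 95% intervals; grey lines join the hemispheres of 1 labelled genotype and time, and n counts natural killer cells. The share of kept cells runs from 0.0577% to 0.713%, and the lines fall in both pairs labelled WT and rise in both labelled Prdx1-/-.

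The share was 0.630% ± 0.0883 (SD, n = 4) at 48 h and 0.234% ± 0.234 (SD, n = 4) at 24 h. An exact two-sided permutation test over libraries did not separate the times (p = 0.0571, 0.171 after Benjamini-Hochberg adjustment over the 3 factors, smallest possible p 0.0286). Without the 13 cells with MHC class II transcripts the shares were 0.602% and 0.199% and no longer overlapped (exact permutation p = 0.0286, adjusted 0.0857). The share of T cells was 1.77% at 48 h and 0.832% at 24 h, with overlap (exact permutation p = 0.0571, adjusted 0.171). By hemisphere the share was 0.512% ± 0.259 ipsilaterally and 0.352% ± 0.288 contralaterally (SD, n = 4 each, exact permutation p = 0.371). By labelled genotype it was 0.465% ± 0.284 (Prdx1-/-) and 0.399% ± 0.289 (WT, exact permutation p = 0.914, n = 4 each).

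The other cells of a library set the denominator of these shares. As a share of natural killer plus T cells, natural killer cells made up 23.6% ± 7.29 ipsilaterally and 23.1% ± 9.17 contralaterally (SD, n = 4 each, exact permutation p = 0.914). At 48 h they made up 26.7% ± 3.77, and at 24 h 20.0% ± 9.69 (SD, n = 4 each, exact permutation p = 0.314). With cells that carried microglial markers left out of the denominator, the ipsilateral share was lower in 4 of 4 pairs, by 1.57 percentage points on average (exact permutation within pairs p = 0.125, the smallest possible; over all libraries 0.0286, adjusted 0.0857). The direction by hemisphere therefore changed with the cells counted, and a change in natural killer cells and one in the other cells cannot be told apart in such shares.

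Most members fell on either a conventional natural killer side or an ILC1 side. At least 2 UMIs over 5 genes that include Eomes, Itga2, Prf1 and Klra8, with fewer over Il7r, Cxcr6, Itga1, Tmem176a and Tmem176b, put 103 cells on the conventional side, and the reverse put 31 on the ILC1 side. Both sums reached 2 in 15 cells and neither in 7, with the 13 MHC class II cells kept apart. Median depths were 4545 UMIs on the conventional side and 5097 on the ILC1 side. At 24 h the conventional side held 5 and 4 cells in the libraries labelled WT (contralateral, ipsilateral) and 2 and 16 in those labelled Prdx1-/-, and at 48 h 19 and 21, then 9 and 27. The ILC1 side held 0 and 2, then 1 and 5 at 24 h, and 6 and 6, then 7 and 4 at 48 h. At 48 h the ILC1 side came closest in number to the conventional side in the contralateral library labelled Prdx1-/-, and was furthest below it in the ipsilateral library with that label.

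Genes outside this grouping differed along it too and are described without a test. Gzma was seen in 99.0% of the conventional side (exact 95% interval 94.7 to 100) and 19.4% of the ILC1 side (7.45 to 37.5), at 9797 and 413 CPM of the summed cells. These intervals pool the cells of all libraries, cover counting error only and leave out variation between libraries. Klra4 was seen in 48.5% and in 0 of 31 cells, which allows a share of cells with a UMI of up to 9.68%. The related gene Klra8 is part of the grouping, and whether transcripts were split between the genes was not tested. The Klra4 values may therefore not be separate from the grouping. The mature-stage genes Klrg1, an inhibitory receptor, and S1pr5, which guides exit into blood, were seen in 21.4% and 19.4% of the conventional side and 0% of the ILC1 side. Gzmb was seen in 83.5% and 38.7%, at 1037 and 493 CPM. Ltb (lymphotoxin beta) was seen in 24.3% of the conventional and 87.1% of the ILC1 side, the nuclear receptor gene Rora in 8.74% and 61.3%, and the phosphatase gene Inpp4b in 4.85% and 61.3%. The chemokine receptor gene Cxcr3 was seen in 14.6% and 48.4%, and the chemokine gene Xcl1 in 38.8% and 71.0%. Nkg7 (99.0% and 96.8%), Ccl5 (100% and 93.5%), Il2rb (98.1% and 100%), Fcer1g (100% of both) and Ifng (28.2% and 25.8%) were seen on both sides.

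**Figure D2:**
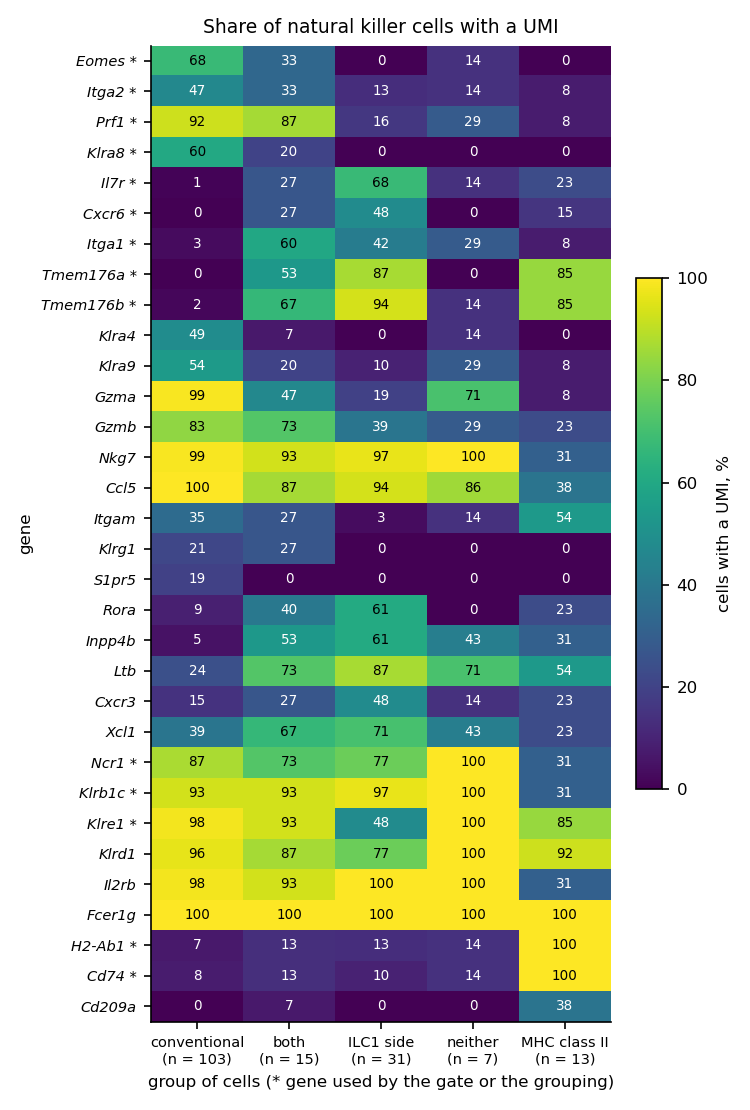
Percentage of natural killer cells with a UMI of each gene, in 5 groups of members (columns), on a colour scale from 0 to 100%; asterisks mark genes used by the gate or the grouping, whose values follow from the choice of cells. Gzma falls from 99.0% of the conventional side to 19.4% of the ILC1 side, while Nkg7, Ccl5 and Fcer1g stay above 90% in both.

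Members were then compared with T cells in the 5 libraries with at least 10 cells of each: the ipsilateral 24 h library labelled Prdx1-/- and the 4 libraries at 48 h. Below, 5 values in a row follow this order, with contralateral before ipsilateral and WT before Prdx1-/- at 48 h. The first value of each row includes 8 cells with MHC class II transcripts, which add to the total UMIs of that library's members. There, 20 granule genes summed to 10200.5 CPM with these cells and 17187 CPM without them. The 22 transcription factor genes summed to 2958 and 4793 CPM. A low first value below is therefore not the level of the other members there. Of 5468 genes tested by edgeR's quasi-likelihood test with library as a block, 267 were higher (4.88%) and 340 lower (6.22%) in natural killer cells at an adjusted p under 0.05, and 506 of the 607 had 1 sign in all 5 libraries. The median difference over all genes was -0.01 on the log2 scale. Counts within the gene lists below are to be read beside these shares of all genes, 4.88% higher and 6.22% lower. Both classes were chosen by receptor and CD3 transcripts, so genes that accompany these had to differ, and the comparison describes the gated cells. Without the cells with MHC class II transcripts 796 genes passed, 550 of them among the 607.

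Receptor genes held the largest differences: of 21 tested (29 listed), 15 were higher in natural killer cells, 1 was lower and the median was 2.79 on the log2 scale. Klra4, the activating receptor Ly49D, stood at 207, 222, 378, 237 and 599 CPM in natural killer cells and held 0 UMIs in T cells. It was at least 323-fold higher, set against a floor of 3 counts over the T cells. Klra8, the receptor Ly49H that recognises a cytomegalovirus protein, stood at 211, 256, 336, 258 and 415 CPM against 0 UMIs, at least 289-fold higher. With 0 UMIs in T cells, both genes entered the test through natural killer cells alone. The T cell gate also excluded cells with UMIs of the rule's receptor genes, so the calls of both genes describe the gated cells only. Every library held both genes in its natural killer cells and neither in its T cells, although 30.8% of members carried a Klra4 UMI and 38.5% a Klra8 UMI.

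Other receptors of the family followed. On the log2 scale, Klra9 was 7.09 higher (263 ± 106 against 1.49 ± 1.57 CPM, SD, n = 5), Klrb1a 6.80, Klra3 6.20, Klri2 6.11, Klrb1b 5.46 and Klrb1f 4.77, each in 5 of 5 libraries. At that T cell level Klra9 too entered the test through natural killer cells alone. Any of the others with as few T cell UMIs could pass only as higher. The T cell gate limits these calls to the gated cells as well. Klrd1, the CD94 chain, stood at 1040, 911, 1045, 982 and 966 CPM against 98.7 to 188 CPM in T cells (log2 difference 2.67 ± 0.16, SE, edgeR adjusted p = 2.44e-09). The groups did not overlap, and Klrd1 was seen in 91.7% of members, 31.7% of T cells and 68.3% of CD8 T cells. Klrk1, which encodes NKG2D, was seen in 94.1% of members and 26.0% of T cells. Klra7, Klrc1, Klrc2, Klrg1 and Slamf7 were also higher, Slamf6 was lower (14.0 ± 7.44 against 114 ± 30.5 CPM), and Klra1, Cd160, Cd226, Cd96 and Fcgr3 did not pass. Many of these genes lie in the natural killer gene complex on chromosome 6 (128609227 to 130386874, GRCm38), where 20 of 41 genes were tested. There, 14 were higher (70% of those tested, against 4.88% of all genes), and Cd69, an early activation antigen, was lower. The rule genes Klrb1c and Klre1 lie in this stretch too, and Klra4, Klra8 and Klra9 entered the test through natural killer cells alone. The share therefore follows in part from the choice of cells and is a description.

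**Figure D3:**
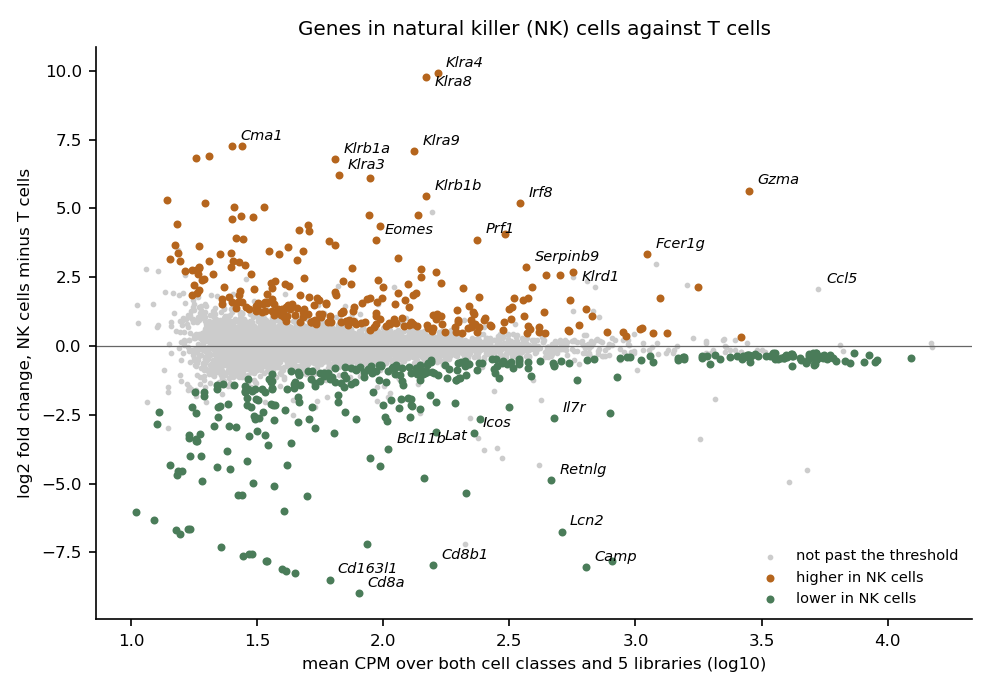
Log2 fold change of natural killer over T cells against mean level (log10 CPM over both classes and 5 libraries) for the 5468 genes tested; brown and green points passed the threshold, higher and lower in natural killer cells, and grey points did not. Klra4 and Klra8 lie at the top, with Gzma at 5.65 at high abundance and Cd8a, Cd163l1, Camp and Cd8b1 at the bottom.

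Adapters and kinases split between the classes. Of 15 tested, 5 were higher, 4 lower and 6 did not pass. Fcer1g stood at 1782 to 2144 CPM against 74.3 to 484 CPM in T cells (edgeR adjusted p = 0.0198) and was seen in 100% of members and 99.1% of other cells. Lat2 (115 ± 34.5 against 7.0 ± 4.25 CPM), Syk, Plcg2 and Sh2d2a were higher. Lat, the scaffold of T cell receptor signalling, was lower (37.1 ± 17.9 against 286 ± 44.6 CPM), as were the kinase gene Lck and the zeta chain gene Cd247. Tyrobp stood at 2098 ± 369 against 309 ± 277 CPM without overlap but did not pass (edgeR adjusted p = 0.069).

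Granule genes were abundant: of 18 tested, 10 were higher, 1 was lower and 7 did not pass, with a median of 1.28 on the log2 scale. Gzma stood at 3877, 6681, 6623, 4651 and 5934 CPM in natural killer cells and 55.1 to 143 CPM in T cells (log2 difference 5.65 ± 0.16, SE, edgeR adjusted p = 2.21e-09). All natural killer values lay above all T cell values. In the 3 smaller 24 h libraries, left out of the test, Gzma stood at 5149, 10509 and 6637 CPM (8, 7 and 3 cells). Prf1, the pore former perforin, stood at 324, 461, 620, 473 and 336 CPM against 10.1 to 41.8 CPM (3.86 ± 0.23). Gzmb, granzyme B, stood at 626, 1050, 809, 1198 and 620 CPM against 52.4 to 260 CPM (2.59 ± 0.19). Against CD8 T cells alone it was 1.89 higher and did not pass (edgeR adjusted p = 0.0574). Serpinb9, which shields the killer cell from granzyme B, was 2.86 higher (657 ± 177 against 81.3 ± 27.7 CPM). Ctsw, Serpinb6b, Cst7, Fasl, Ctsd and Nkg7 were also higher, and Gzmk was lower (8.21 ± 7.75 against 56.1 ± 47.4 CPM).

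Of 9 cytokine and chemokine genes, Ccl4, Ccl3 and Xcl1 were higher, Ltb was lower and 5 did not pass. Ccl5 stood at 6937, 8664, 11219, 6691 and 9263 CPM against 614 to 3279 CPM in T cells, without overlap, and did not pass (edgeR adjusted p = 0.0905). Ccl4 was 1.74 ± 0.19 higher (SE, log2 scale, 583 ± 237 against 164 ± 97.5 CPM). Xcl1, which attracts cross-presenting dendritic cells, varied most among these, at 132, 772, 210, 912 and 782 CPM against 3.96 to 183 CPM in T cells. Its edgeR adjusted p of 0.022 rose to 0.0849 when the 24 h library was left out, to 0.0624 without the contralateral 48 h library labelled WT and to 0.0743 without its ipsilateral counterpart labelled Prdx1-/-. Ccl3 was 0.84 higher, and its call was lost without the contralateral (0.1) or ipsilateral (0.125) 48 h library labelled Prdx1-/-. Ifng, interferon gamma, stood at 41.5, 161, 68.3, 104 and 36.8 CPM, overlapped with T cells and did not pass (edgeR adjusted p = 0.217).

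**Figure D4:**
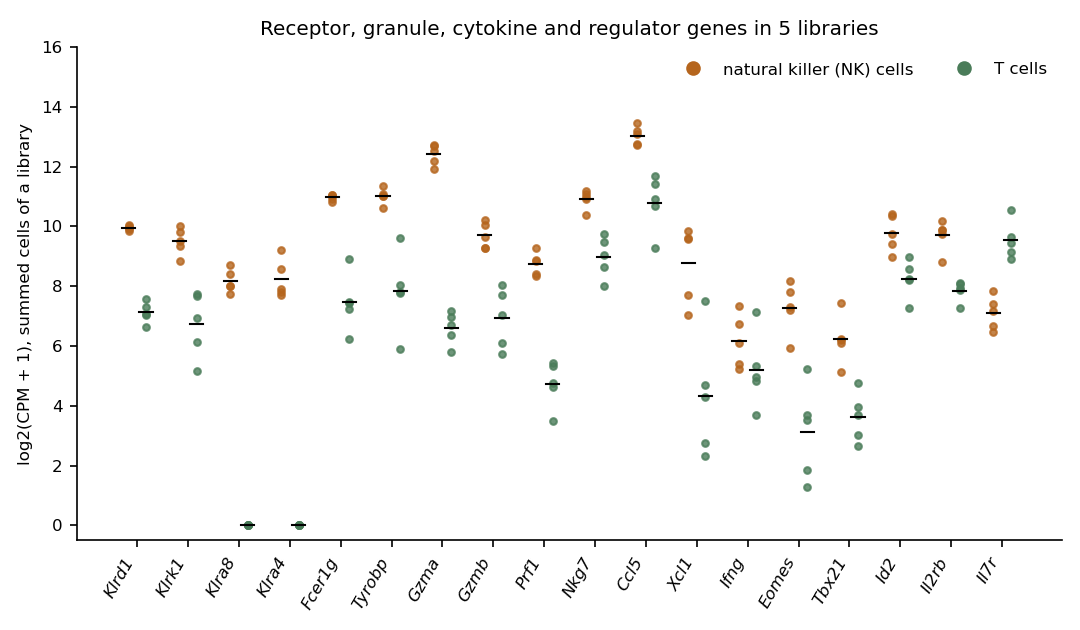
Levels of 18 genes in natural killer cells (brown) and T cells (green) as log2(CPM + 1) of the summed cells of each of 5 libraries (points), with the mean (black bars). Gzma, Prf1, Klrd1, Klra4 and Klra8 do not overlap between the classes, Ifng overlaps, and Il7r is higher in T cells.

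Of 15 cytokine receptor genes, 5 were higher (Il18rap, Ifngr1, Il2rb, Il12rb2 and Il10rb), 2 lower (Il7r and Tgfbr2) and 8 did not pass. Il2rb, the chain through which interleukin 15 sustains natural killer cells, stood at 869 ± 261 against 235 ± 48.3 CPM and was seen in 92.9% of members. Il7r stood at 145 ± 55.8 against 807 ± 398 CPM. Of 20 transcription factor genes, 9 were higher, 5 lower and 6 did not pass. Eomes stood at 60.3, 222, 158, 146 and 289 CPM against 1.45 to 36.5 CPM in T cells (log2 difference 3.85 ± 0.47, SE, edgeR adjusted p = 0.00108). Tbx21 stood at 33.9, 72.2, 68.3, 174 and 73.5 CPM against 5.28 to 26.1 CPM. Neither gene overlapped between the classes. Irf8, an interferon regulatory factor of innate cells, was 5.19 ± 0.50 higher (SE, log2 scale, 680 ± 145 against 18.1 ± 14.6 CPM) and was seen in 74.0% of members and 71.8% of other cells. The T cell regulators Bcl11b (15.7 ± 6.36 against 193 ± 23.2 CPM), Lef1, Tcf7 and Ets1 were lower. Rora was 1.18 ± 0.19 lower, and 0.22 higher against CD8 T cells alone.

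Of 13 mature-stage genes 7 were higher and S1pr1, an exit receptor, was lower (30.1 ± 20.9 against 176 ± 78.0 CPM). Cma1, a protease gene of mature natural killer cells and mast cells, stood at 50.2 ± 23.2 CPM with 0 UMIs in T cells, at least 49.3-fold higher. It too entered the test through natural killer cells alone. The 6 other mast cell and basophil markers were at 0 in the members of these libraries. Of 11 immature-stage genes, 4 were higher (Cd7, Klrc1, Xcl1 and Ctla2a) and 5 lower (Cd69, Emb, Thy1, Ltb and Tcf7). Of 12 ILC1 genes, 0 were higher and 6 lower (Il7r, Rora, Gpr183, Cxcr6, Ltb and Inpp4b). Of 20 migration and adhesion genes, 5 were higher, among them Itga2 (CD49b, 78.1 ± 20.3 against 5.95 ± 3.42 CPM), and 4 lower.

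Of 16 proliferation genes 7 were lower (6.22% of all genes were) and 0 higher, with Mki67 at 3.2 ± 3.13 against 30.6 ± 24.4 CPM. At that natural killer level Mki67 entered the test through T cells alone. Any of the others with as few natural killer UMIs could pass only as lower. The split of 7 and 0 may therefore follow in part from how genes entered the test. All 26 listed genes summed to 882 to 1272 CPM in members and 1047 to 2338 CPM in T cells. These ranges overlapped, but within each tested library the members lay below the T cells. Over all 8 libraries Tubb5, Birc5, Ube2c and Mki67 did not pass (edgeR adjusted p = 0.262, 0.465, 0.0561 and 0.261). Ube2c was not tested without the MHC class II cells. In the contralateral 24 h libraries, left out of the test, 26 proliferation genes summed to 5595 CPM in 8 members and 1214 CPM in T cells (WT) and to 1751 CPM in 3 members and 887 CPM in T cells (Prdx1-/-). Lower genes numbered 2 of 12 in the interferon response (Slfn1 among them), 4 of 18 in glycolysis (Gpi1, Ldha, Gapdh and Aldoa) and 1 of 20 in oxidative phosphorylation (Uqcrh), with 0 higher. Of 25 immediate-early genes 5 were higher (Nr4a2, Nr4a1, Rgs2, Rgs1 and Btg2), where 4.88% of all genes were. Sqstm1 was higher among 20 antioxidant genes, and among 19 NF-kB feedback genes Nfkb2 was higher and Cish lower. The counts for antioxidant, NF-kB feedback and oxidative phosphorylation genes lay near the shares of all genes (4.88% higher, 6.22% lower). The calls of Ldha, Gapdh, Aldoa, Uqcrh, Sqstm1 and Nfkb2 were each lost when the contralateral 48 h library labelled WT was left out (edgeR adjusted p from 0.0712 to 0.133), and all but that of Uqcrh also without at least 1 of the other libraries. Nfkb2 was 0.79 higher and did not pass without the MHC class II cells (edgeR adjusted p = 0.226).

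Among genes with a mean of at least 50 CPM, those furthest below T cells included T cell genes and neutrophil genes. Cd8a held 0 UMIs in natural killer cells (at least 48.1-fold lower), as did the gamma-delta T cell gene Cd163l1 (at least 42.7-fold lower), and Cd8b1, Gm8369 and Icos were also lower. Cd8a and Cd163l1 entered the test through T cells alone. The neutrophil genes Camp (5.30 ± 6.53 against 1270 ± 2199 CPM), Lcn2 and Retnlg were lower with overlap between the classes. Retnlg did not pass when either ipsilateral 48 h library was left out (edgeR adjusted p = 0.051 without WT and 0.0671 without Prdx1-/-). The summed level of 12 neutrophil markers ran from 97.5 to 2321 CPM in natural killer cells (Ly6g at 0), from 103 to 74908 CPM in T cells and from 9664 to 72687 CPM in all other cells, and 6 of the 10 tested were lower in natural killer cells. In the 48 h libraries labelled WT (contralateral, ipsilateral) these sums were 128 and 683 CPM in members and 103 and 799 CPM in T cells. In those labelled Prdx1-/- (24 h ipsilateral, then 48 h contralateral and ipsilateral) they were 2321, 97.5 and 1071 CPM against 14838, 9502 and 74908 CPM. The wide gap in the sums thus lay in the libraries labelled Prdx1-/-. The part of neutrophil RNA in the T cell values was not tested.

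Within the members, hemisphere and labelled genotype were compared at 48 h, where all 4 libraries held at least 22 natural killer cells. The additive fit left 1 residual degree of freedom. Of 2959 genes, 6 were higher (0.203%) and 8 lower (0.27%) ipsilaterally in edgeR's test, with 227 at an unadjusted p under 0.05. DESeq2's Wald test called 0, with 22 at an unadjusted p under 0.05. Values below are given for the libraries labelled WT and then Prdx1-/-.

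The chemokine gene Cxcl2 stood at 11.1 and 0 CPM contralaterally and 131 and 110 CPM ipsilaterally (log2 difference 4.21 ± 0.66, SE, edgeR adjusted p = 0.00061). Il1b, which encodes interleukin 1 beta, stood at 16.7 and 34.8 CPM and then 478 and 110 CPM (3.53 ± 0.57, edgeR adjusted p = 0.0172). Plac8 stood at 66.6 and 20.9 CPM and then 672 and 47.3 CPM (3.01 ± 0.41). In all 3 genes both ipsilateral values lay above their own contralateral partner, but the ipsilateral library labelled Prdx1-/- lay below the contralateral one labelled WT for Plac8. Without the cells with MHC class II transcripts Cxcl2 was 4.12 higher and still passed, while Il1b was 1.88 higher and did not (edgeR adjusted p = 0.0713). Plac8 was not tested without them, at 19.6 and 0 CPM contralaterally and 231 and 47.3 CPM ipsilaterally. In T cells of these libraries Cxcl2 was 4.51 and Il1b 4.86 higher ipsilaterally. All other cells averaged 4640 CPM of Cxcl2 ipsilaterally and 1040 CPM contralaterally, far above the members, and 12 neutrophil markers summed to 877 and 113 CPM in the members. The part of free RNA in these rises was not tested.

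Mxd1, a Myc network repressor, Tuba1a and Ccl5 were the other genes higher ipsilaterally. Ccl5 was 0.46 ± 0.10 higher (SE, log2 scale, 8664 and 6691, then 11219 and 9263 CPM), with other cells at 41.4 CPM ipsilaterally and 76.4 CPM contralaterally. The AP-1 gene Jun stood at 628 and 536 CPM contralaterally and 179 and 126 CPM ipsilaterally (-1.90 ± 0.27, edgeR adjusted p = 0.000249). Other cells averaged 3708 CPM of Jun contralaterally and 804 CPM ipsilaterally. The ILC1 genes Tmem176a (383 and 292, then 158 and 57.8 CPM, edgeR adjusted p = 0.0097) and Tmem176b were lower, as were Txnip (689 and 599, then 310 and 194 CPM), Lars, Cdk4, Rgs3 and Zfp512. Without the MHC class II cells Cdk4 was at -1.86 and did not pass (edgeR adjusted p = 0.0933). Cytotoxic genes did not pass: the ipsilateral difference was 0.21 ± 0.12 (SE, log2 scale) for Gzma, 0.02 ± 0.27 for Prf1, -0.62 ± 0.23 for Gzmb and 0.13 ± 0.22 for Klrd1. In the lists, 0 of 17 receptor and 0 of 14 granule genes passed, with 1 of 6 cytokine genes higher and 2 of 8 ILC1 genes lower. Of all genes, 0.203% were higher and 0.27% lower.

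**Figure D5:**
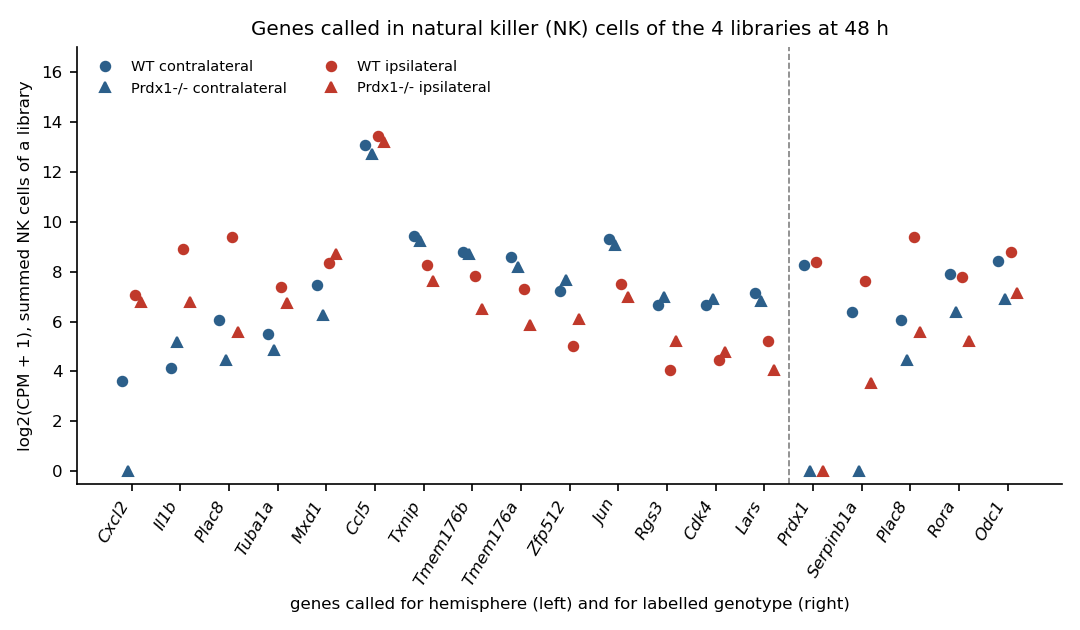
Levels as log2(CPM + 1) of the summed natural killer cells of the 4 libraries at 48 h, for the 14 genes called by hemisphere (left of the dashed line) and the 5 called by labelled genotype (right); colour gives the hemisphere and symbol the labelled genotype. Prdx1 is at 0 in both libraries labelled Prdx1-/-, and Ccl5 has the smallest hemisphere difference of the 14.

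Prdx1 (chromosome 4, 116685544 to 116700822, GRCm38) was read in every library to check the labels. In natural killer cells of the libraries labelled WT it stood at 446 and 170 CPM at 24 h (contralateral, ipsilateral) and 305 and 331 CPM at 48 h. In those labelled Prdx1-/- it stood at 0 and 207 CPM at 24 h and 0 and 0 CPM at 48 h. At 48 h 43 of 60 cells labelled WT had a UMI and 0 of 58 labelled Prdx1-/- did, which allows a share of cells with a UMI of up to 5.17%, and the level was at least 35.5-fold lower (edgeR adjusted p = 3.53e-08). At 24 h the ipsilateral library labelled Prdx1-/- went against its label, with a UMI in 13 of 33 cells, and its level was 106 CPM without the MHC class II cells. The contralateral 0 at 24 h rests on 3 cells, and T cells there held 30.2 CPM.

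By labelled genotype at 48 h, 0 genes were higher and 5 lower (0.169%) in the libraries labelled Prdx1-/- in edgeR's test, with 156 at an unadjusted p under 0.05. DESeq2's Wald test called 0, with 12 at an unadjusted p under 0.05. Beside Prdx1, Serpinb1a, a protease inhibitor gene, stood at 83.3 and 194 CPM under WT (contralateral, ipsilateral) and 0 and 10.5 CPM under Prdx1-/-. Odc1, the rate-limiting enzyme of polyamine synthesis, stood at 339 and 446 CPM and then 118 and 142 CPM (-1.63 ± 0.27, SE, log2 scale, edgeR adjusted p = 0.000868). Rora stood at 239 and 221 CPM and then 83.6 and 36.8 CPM (-2.02 ± 0.39, edgeR adjusted p = 0.00917). These 3 genes did not overlap between the labels. With 2 libraries per label and genes called on this same difference, that adds no separate support, and the share of all tested genes without overlap was not counted. T cells differed by -1.69 for Rora and did not pass (edgeR adjusted p = 0.0915). Plac8 was lower by 3.43, with its highest value in the ipsilateral library labelled WT, and was not tested without the MHC class II cells. Klf4, Irf2bpl and Lncpint had the smallest p among the positive differences and did not pass (edgeR adjusted p = 0.277, 0.277 and 0.282).

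Cycling members, with at least 2 UMIs over 11 cell cycle genes, numbered 2 of 28 and 3 of 22 in the contralateral 48 h libraries (WT, Prdx1-/-) and 0 in the 3 ipsilateral libraries with at least 10 members. The mean share was 10.4% contralaterally and 0% ipsilaterally (n = 2 and 3, exact permutation p = 0.1, the smallest the design allows). With each cell thinned to 2000 UMIs it was 1.79% and 0% (exact permutation p = 0.4). Median depths were 5989 and 6257.5 UMIs in those contralateral members and 4628 to 5126 UMIs in the ipsilateral ones, and the part of depth in the difference was not tested beyond the thinned values.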

How the data were processed

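The authors deposited raw UMI counts, genes by cells, for 8 libraries (39433266 to 70111421 UMIs, 4189 to 5759 cells each). Cell Ranger, Seurat and mm10 are named, without versions, per the submitters' processing notes; further upstream steps are not given in the sources used here. Cells above 10% mitochondrial UMIs were removed, leaving 39608 of 39945. Pairs of libraries shared 3 to 17 cell barcodes, and members shared 0.

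Raw counts were summed per library and class and tested with edgeR 4.0.16 in R 4.3.3 (quasi-likelihood, robust, TMM, filterByExpr, Benjamini-Hochberg adjusted p under 0.05), with DESeq2 1.42.0 as an alternative. The comparison with T cells used library as a block. The planned fit over all libraries needed 6 libraries with at least 10 members and 5 had them, so the fit at 48 h is given. Shares were compared by exact two-sided permutation (Python 3.11.15, scipy 1.17.1). Scrublet doublets (scanpy 1.11.5, the top 0.8% per 1000 cells) were removed in an alternative, and 2 members were among them. On simulated data, 56.2% of 2-fold and 99.0% of 4-fold changes were recovered against T cells (4984 genes), and 1.1% and 40.2% for hemisphere at 48 h (2679 genes).

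The members, comparisons and gene lists were chosen with earlier results of these data known. Named genes passed the threshold at a mean of at least 50 CPM with 1 sign in every pair (the 10 largest changes in each direction), were among the 4 smallest p of a list in a direction, or, where fewer than 3 passed, had the 3 smallest p; Prdx1, the gate genes and Gzma were always given, and members of the receptor, granule, cytokine and transcription factor lists were described by level. Other members of a list are named by direction only. Mitochondrial, hemoglobin, ribosomal and antigen receptor genes were left out. Fcer1g, Tyrobp, Il2rb and Cma1 fall outside this rule, and their values were chosen after they were seen. Gene positions are from GENCODE M21 (20029 of 20340 genes matched). A few list members, 1 of them part of the sum for the conventional side, are not reported here.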

Additional observations from a re-analysis of the deposited data

Results flagged for a closer look

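In 9 of 77 groups of 5 libraries, 1 library stood apart from the others by Dixon's test at the 95% level, which chance flags in about 1 in 20 groups. In the natural killer cells of the contralateral 48 h library labelled Prdx1-/-, Klrb1a stood at 195 CPM, Tbx21 at 174 CPM and Ube2c at 6.96 CPM. In the ipsilateral 48 h library labelled Prdx1-/-, Lef1 stood at 105 CPM, Retnlg at 89.3 CPM, Lcn2 at 47.3 CPM and Gm8369 at 5.25 CPM. Cd8b1 stood at 5.55 CPM in the contralateral 48 h library labelled WT, and Ldha at 403 CPM in the ipsilateral 24 h library labelled Prdx1-/-. In that 24 h library, 20 glycolysis and hypoxia genes summed to 4126 CPM in all members and 2278 CPM without the MHC class II cells. The values of Cd8b1, Ube2c and Gm8369 lie at the level of 1 UMI in the summed members of their library.

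The ipsilateral minus contralateral share of natural killer cells was -0.0368 (24 h) and -0.0506 (48 h) percentage points in the pairs labelled WT, and 0.521 and 0.204 in those labelled Prdx1-/-. As a share of natural killer plus T cells the differences were -15.6 and -2.62 points (WT) and 17.2 and 2.83 points (Prdx1-/-). Both labels moved in opposite directions, with 2 pairs each, and the exact permutation p of the difference was 0.333, the smallest that 2 pairs against 2 allow. The ipsilateral 24 h library labelled Prdx1-/- held Prdx1 UMIs against its label.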

How the results depend on the processing

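The labels carry no replicate numbers that pair libraries, and each group holds 1 library; hemispheres swapped within labelled genotype and time gave an exact permutation p of 0.5 for the share. With microglial marker cells out of the denominator, the difference in share turned from 0.159 to -1.57 points by hemisphere and from 0.0655 to -0.548 by labelled genotype. Leaving out 1 library at a time gave 0.0612 to 0.286 points by hemisphere, -0.0236 to 0.201 by labelled genotype (negative without either 24 h library labelled WT or the ipsilateral 48 h library labelled Prdx1-/-) and 0.337 to 0.51 by time. For natural killer cells among natural killer and T cells the ranges were -4.05 to 3.62 by hemisphere, -1.73 to 5.94 by labelled genotype and 3.17 to 9.82 by time, against 0.432, 1.18 and 6.62, and hemisphere was -0.452 without the MHC class II cells. The labelled genotype difference in cycling share went from 0.974 to -1.79 points with thinned cells. The 607 genes called against T cells became 346 in DESeq2's Wald test (318 shared), 929 without a filter on low counts (588 shared) and 436 to 557 with 1 library left out. Of 65 named genes 41 kept their call in every alternative run, 23 lost it in at least 1, and Rora reversed to 0.22 against CD8 T cells. By hemisphere at 48 h the 14 calls became 3 with DESeq2's size factors, 0 in its Wald test, 28 without the filter, 47 without doublets, 49 with the stricter gate, 50 without the MHC class II cells (11 shared), 2 over all 8 libraries and 0 among genes at or above the level of other cells. By labelled genotype the 5 calls became 0 in the Wald test, 18 without the filter, 32 without doublets, 20 with the stricter gate, 11 without the MHC class II cells (4 shared), 0 over all 8 libraries and 0 among genes at or above the level of other cells. The cause of these changes was not tested. All 14 hemisphere calls were lost in at least 1 alternative. The alternatives without MHC class II cells and over all 8 libraries were chosen after seeing the data. A fit of genes over time was run over all 8 libraries, 3 of them with fewer than 10 members, and is not reported here. The fits over ipsilateral libraries only and with 1 library left out at 48 h were not run. Depths of 3 to 36 members per library limit rare transcripts.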

Other observations

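Ribosomal protein genes, which the rule for named genes left out, were mostly lower in natural killer than in T cells. In edgeR's quasi-likelihood test 67 of 80 were lower (83.8%, against 6.22% of all genes), 1 was higher and 12 did not pass, with a median of -0.38 on the log2 scale. They were lower in all 5 libraries for 43 of the 80. The set was chosen after its values were seen.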
